A study of Mus musculus with 12 samples.

Results

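The nuclear-encoded subunits of the respiratory chain were examined in primary mouse intestinal stromal fibroblasts, with and without added TGFB1 and with and without the label Tgfbr2KO. Members were the genes whose symbol begins as a numbered subunit of complex I (Nduf a, b, c, s or v), II (Sdh a to d), III (Uqcr), IV (Cox 4 to 8) or V (Atp5). This gave 83 of the 25203 genes in the table, with 36 in complex I, 4 in complex II, 8 in complex III, 18 in complex IV and 17 in complex V. Ndufa4 was kept with complex I by its symbol, although its protein is now counted with complex IV. The subunits encoded in mitochondrial DNA do not match these symbols and were not analysed here.

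The respiratory chain sits in the inner mitochondrial membrane. Complex I (NADH dehydrogenase) and complex II (succinate dehydrogenase) pass electrons to ubiquinone, complex III passes them on to cytochrome c, and complex IV hands them to oxygen. Complex V, the ATP synthase, uses the proton gradient that complexes I, III and IV build up. Most subunits are encoded in the nucleus, made in the cytosol and imported, and the nuclear respiratory factor NRF1 is known to bind the promoters of many of their genes. In fibroblasts, TGFB1 is best known for turning on matrix and contractile genes.

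All 12 libraries came from cultures of Pdgfra-lo-H2B-GFP cells, which carry a green nuclear reporter at low Pdgfra signal, and there were 3 libraries in each of 4 groups. The group TGFB1_KO was labelled Tgfbr2KO and received exogenous TGFB1, and the group Vehicle_Tgfbr2KO was labelled Tgfbr2KO and received vehicle. The group TGFB1 received exogenous TGFB1 without that label, and the group Vehicle received vehicle without it. The labels do not give the deleted stretch of Tgfbr2, the Cre line, the dose, the time, the age of the mice or whether the libraries of a group came from separate animals. The p-values below therefore measure the spread between libraries. The design uses the Tgfbr2KO cultures to look for non-canonical effects of TGFB1.

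Values are FPKM, fragment counts scaled for transcript length and library size, so that levels can be compared between genes of different length. Read numbers per library were not given, so depth is unknown. Tgfbr2 itself was read at 31.6, 38 and 62.4 FPKM in TGFB1_KO, 27, 35.2 and 41.9 in Vehicle_Tgfbr2KO, 56.5, 70.6 and 74.6 in TGFB1 and 48, 38.2 and 78.8 in Vehicle. These ranges overlap, and a gene-level FPKM does not show whether the remaining transcripts lack an exon. All 8 fibroblast markers reached 1 FPKM in at least 3 libraries. Their summed FPKM ranged over 3858 to 6725 in TGFB1_KO, 3131 to 4195 in Vehicle_Tgfbr2KO, 8161 to 8955 in TGFB1 and 5257 to 8589 in Vehicle, so that Vehicle_Tgfbr2KO lay below Vehicle without overlap. Among the 8, Pdgfra, the gene whose reporter defines the cells, was read at 13.8, 19.7 and 12.1 FPKM in TGFB1 and 137, 125 and 165 in Vehicle, and at 67.3, 83.2 and 195 in TGFB1_KO and 48.3, 75.3 and 99.8 in Vehicle_Tgfbr2KO (limma adjusted p = 0.000197 for TGFB1 minus Vehicle). None of 4 enteric glia and 4 adipocyte markers reached 1 FPKM in 3 libraries. Summed FPKM of 5 endothelial markers was at most 14.01, and that of 6 epithelial markers at most 3.377 except for 19.97 in a TGFB1_KO library and 51.15 in a Vehicle_Tgfbr2KO library. Summed FPKM of 6 smooth muscle and pericyte markers, all of them detected, ranged over 2892 to 3231 in TGFB1 and 1956 to 2437 in Vehicle, so these markers moved with the treatment. They ranged over 1542 to 2410 in TGFB1_KO and 1709 to 2065 in Vehicle_Tgfbr2KO. Summed FPKM of 8 macrophage markers ranged over 13.2 to 343 in TGFB1 and 35.2 to 671 in Vehicle, and the ranges overlap. The part of these other cell types in the results below was not tested. In bulk RNA, a change in the share of a cell type and a change of RNA per cell cannot be told apart.

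The chain was strongly expressed in all groups. The mean FPKM over the 12 libraries had a median of 106.3 over the 80 members with at least 1 FPKM in 3 or more libraries, against 10.53 over all 12641 genes that passed the same filter. By complex, the median of these means was 258.1 FPKM for complex V, 181.8 for IV, 117.6 for III, 88.89 for I and 77.3 for II. The highest members were Cox6a1 (792.6 FPKM), a small membrane subunit of complex IV, and Atp5b (604.9 FPKM), the catalytic beta subunit of ATP synthase. They were followed by Atp5md (555.7 FPKM), Cox8a (523.6 FPKM) and Cox4i1 (425.5 FPKM). The lowest member of complex I was Ndufa11 (18.52 FPKM), a membrane-arm subunit. Ndufs1 (26.99 FPKM), the largest iron-sulfur subunit of the electron-entry arm, was also low. Cox7b2 and Cox8c, known from testis, were listed at 0 in every library, and Cox8b, known from heart and muscle, was above 0 only in Vehicle replicate 1 at 0.372 FPKM. These 3 were not tested.

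Members varied little between libraries. Among the 77 members with a mean of at least 5 FPKM, the highest library was a median of 1.275 times the lowest, and this ratio was under 1.5 for 74 of them (96.1%). Over all 8808 genes with a mean of at least 5 FPKM the median ratio was 1.488, and 51.3% were under 1.5. These sets share that floor but were not matched for level. Among genes tested, the median level was 106.3 FPKM for members and 10.53 for all genes. The steadiest member was Sdha, the flavoprotein of complex II, which ran from 60.62 to 67 FPKM, a ratio of 1.105. The 3 members past 1.5 were Uqcrq (1.608), Ndufv3 (1.683) and Cox6b2 (4.073).

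**Figure D1:**
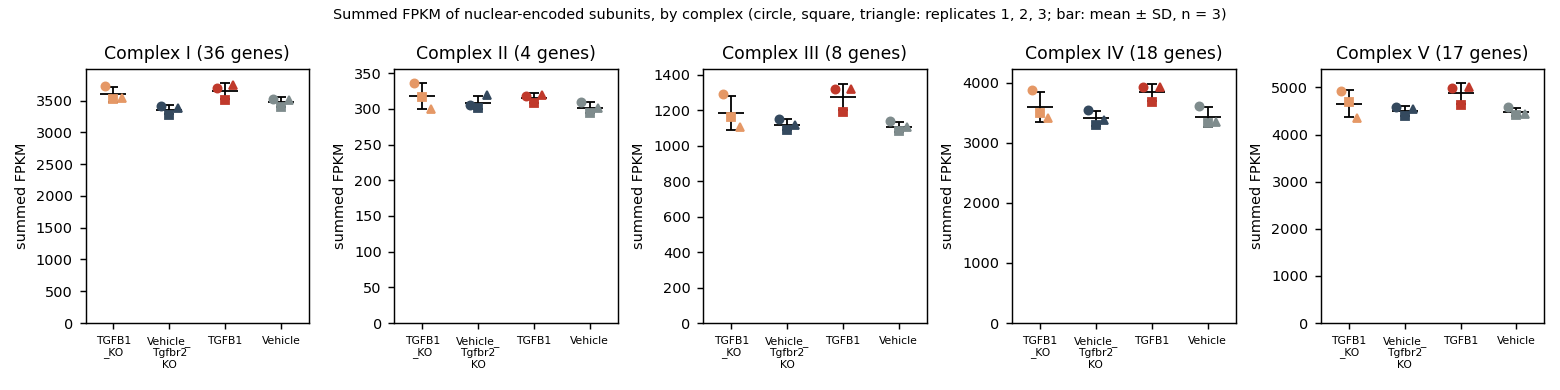
Summed FPKM of the subunit genes of each complex (y axis) in the 4 groups (x axis), with 1 point per library and the bar giving the mean ± SD of 3 libraries. In complex III the TGFB1 libraries sit between 1192 and 1320 and all Vehicle libraries at or below 1138; scaling each library to a common sum brings that ratio of means to 1.044 and puts complexes I, II and V below 1.

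With TGFB1, the summed FPKM of complex III was 1320, 1192 and 1319 in TGFB1 libraries, against 1138, 1082 and 1104 in Vehicle libraries. All 3 TGFB1 libraries were above all Vehicle libraries. The ratio of mean sums, TGFB1 over Vehicle, was 1.153 for complex III, 1.121 for IV, 1.088 for V, 1.048 for I and 1.046 for II. The deposited FPKM of a library did not sum to a fixed total: the sum over all genes was 551457 to 569510 in TGFB1 and 503530 to 518802 in Vehicle. With each library scaled to a common sum, the ratios became 1.044 for complex III, 1.016 for IV, 0.9855 for V, 0.9499 for I and 0.9476 for II, so that the direction turned for I, II and V. Under the other scalings the median log2 change of complexes I, II and V stayed above 0. It was 0.04, 0.06 and 0.06 with each library scaled by its median gene ratio (median-ratio scaling). With upper-quartile scaling it was 0.02, 0.04 and 0.03. As a share of all FPKM, the 83 members made up 2.41 to 2.52% in TGFB1 and 2.48 to 2.54% in Vehicle.

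Gene by gene, 9 members rose and 2 fell with TGFB1 (limma on log2(FPKM + 1), adjusted over all genes tested, threshold 0.05). That is 11.2% of the 80 tested members up and 2.5% down, against 17.3% up and 14.6% down among all 12641 genes tested. Both shares lie below those of all genes. In 20 members all TGFB1 libraries lay above all Vehicle libraries and in 4 below, of the 80, against 26.1% and 21.8% of all genes tested. Over all members 64 of 80 changes were positive with a median log2 of 0.08, against 52.6% and 0.02 for all genes. With median-ratio scaling 58 were positive with a median of 0.06, against 50.2% and 0.001 for all genes. With upper-quartile scaling 55 were positive with a median of 0.035, against 46.6% and -0.02. But with each library scaled to a common sum 25 of 80 were positive and the median was -0.06, against 34.2% and -0.105. That scaling moved the median of all genes by -0.12 on the log2 scale. Relative to the median gene, the members' median was 0.06 higher as deposited and 0.05 higher after that scaling, and 58 and 57 of the 80 members lay above the median gene. In 73 of 80 members (91.2%) the 95% interval of the change lay within 0.5 of 0 on the log2 scale, against 53.7% of all genes tested. The median SE was 0.075 for members and 0.109 for all genes, and the sets were not matched for level.

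**Figure D2:**
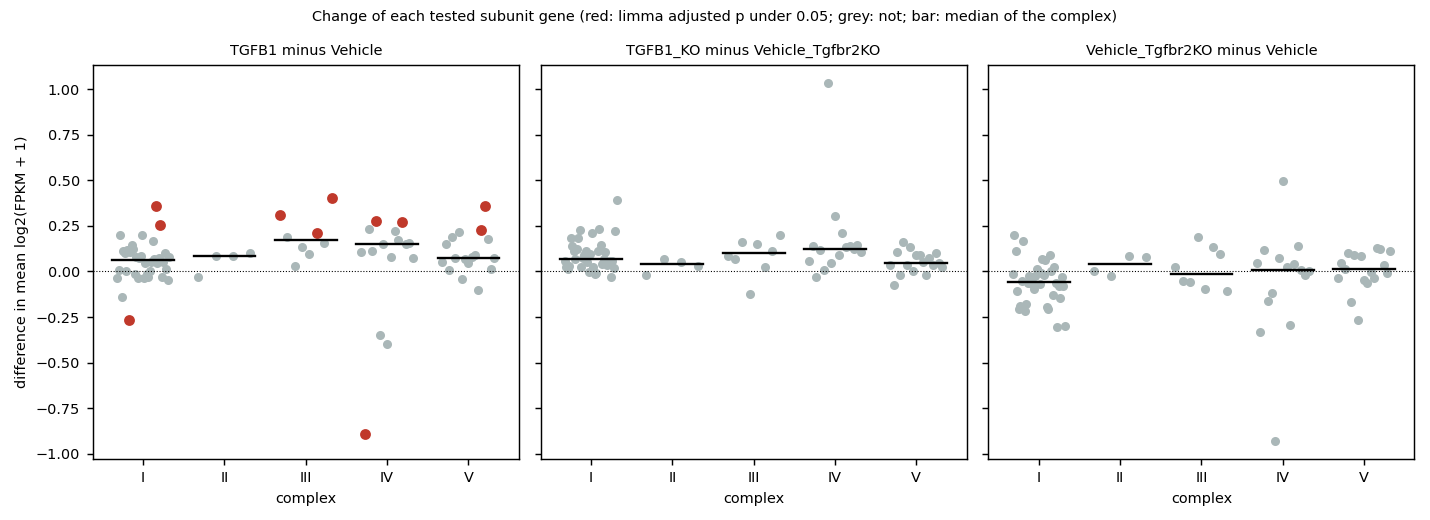
Difference in mean log2(FPKM + 1) (y axis) of each tested subunit gene, grouped by complex (x axis), in 3 comparisons; red points passed the limma threshold and bars are the medians of a complex. In TGFB1 minus Vehicle 9 genes are red above 0 and 2 below, and no point is red in the other 2 panels. Scaling each library to a common sum lowers the median of the first panel from 0.08 to -0.06, and median-ratio scaling puts it at 0.06.

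Counts by complex were 2 up and 1 down of 36 in complex I, 0 of 4 in II, 3 up of 8 in III, 2 up and 1 down of 15 tested in IV, and 2 up of 17 in V. With each library scaled to a common sum the counts were 3 up (Ndufs5 and Uqcrq among them) and 5 down (Ndufa5 and Cox4i2, joined by Atp5k, Ndufa12 and Sdha). Among all genes tested that scaling called 9.25% up and 22.1% down. The number of members called up also depended on single libraries. It was 3 (Ndufs5 and Uqcrq among them) without Vehicle replicate 2, without TGFB1 replicate 1 or without TGFB1 replicate 3, 5 without Vehicle replicate 3, and 12 without TGFB1_KO replicate 3. The number called among all genes also changed when a library was left out. Ndufs5 and Uqcrq passed the threshold in all 23 other settings tried. Without a filter on low values the calls of Atp5md, Cox6a1, Cox4i2 and Uqcr10 were lost, and with only the groups compared in the fit those of Cox7a2l, Cox4i2 and Uqcr10. Because same-numbered libraries deviated together within each genotype, the replicate number was also fitted as a block, which called 15 members up and 3 down (22.7% and 18.7% of all genes), with all 11 among them. The members it added were Atp5d, Cox6b1, Cox7a2, Cox7c, Ndufc2 and Uqcrh up (adjusted p 0.0131 to 0.0369) and Ndufa12 down (0.0360). A block within genotype, chosen after seeing the data, called 14 members up and 2 down, against 21.6% and 18.7% of all genes. It kept 10 of the 11, without Uqcrfs1.

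**Figure D3:**
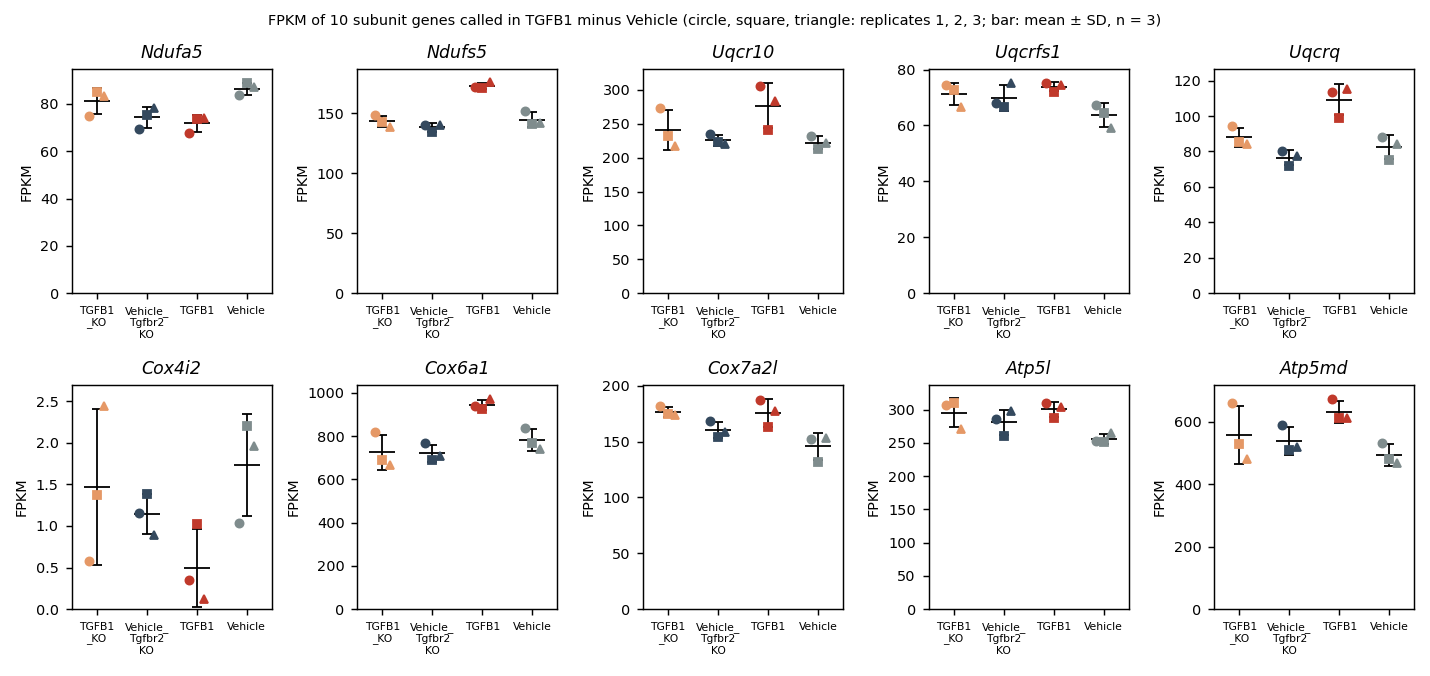
FPKM (y axis, from 0) of 10 subunit genes called in TGFB1 minus Vehicle, in each library of the 4 groups (x axis); bars are the mean ± SD of 3 libraries. Uqcrq stands at 99.2 to 115 FPKM in TGFB1 libraries and at 75.2 to 88 FPKM in Vehicle libraries.

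In complex I, the accessory subunits Ndufs5 and Ndufa5 moved in opposite directions. Ndufs5 measured 172, 171 and 176 FPKM in TGFB1 libraries and 152, 141 and 142 FPKM in Vehicle libraries. It was higher in all 3 TGFB1 libraries, by a log2 of 0.26 ± 0.05 (SE, adjusted p = 0.00285). Ndufa5 measured 67.8, 73.8 and 73.9 FPKM in TGFB1 libraries and 83.7, 88.7 and 87.1 FPKM in Vehicle libraries. Its log2 change was -0.27 ± 0.07 (SE, adjusted p = 0.0124), and its adjusted p became 0.0539 without TGFB1 replicate 1. On the deposited scale, Ndufa5 was the only well-expressed member called lower by the fit of all 12 libraries without a block. Ndufa12 (log2 -0.14, adjusted p = 0.0839 in that limma fit) was called lower under all 3 scalings and with the replicate block. Promoter stretches of both genes (RefSeq, GRCm38.p6, minus strand) are shown because each holds a match to the NRF1 letters GCGCNTGCG, read on either strand and set in capitals. The Ndufs5 stretch is chr4:123718250-123718308 and the Ndufa5 stretch is chr6:24527682-24527740, both upstream of the gene start.
Ndufs5: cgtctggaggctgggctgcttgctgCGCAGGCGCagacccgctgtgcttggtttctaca
Ndufa5: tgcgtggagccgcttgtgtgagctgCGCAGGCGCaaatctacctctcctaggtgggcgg
The capital letters are the same in both genes, although one rose and the other fell.

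Several core subunits of complex I did not pass the test, with log2 changes of 0.01 for Ndufv1, which holds the NADH site, -0.05 for Ndufv2, 0.07 for Ndufs1, 0.04 for Ndufs3, 0.05 for Ndufs7 and 0.10 for Ndufs8. The widest of these intervals, for Ndufv2, ran over -0.24 to 0.15. Ndufv1 measured 47.1 ± 2.64 FPKM in TGFB1 and 46.7 ± 1.64 FPKM in Vehicle (SD, n = 3 each). Over all 36 members of complex I the log2 changes had a median of 0.06 as deposited and -0.08 with each library scaled to a common sum. With median-ratio scaling that median was 0.04.

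Complex II, which also works in the citric acid cycle, had no member called on the deposited scale. Sdha measured 64.4, 66.4 and 61.7 FPKM in TGFB1 libraries and 65.5, 66.7 and 64.1 FPKM in Vehicle libraries, and the groups overlap. Its log2 change was -0.03 (95% interval -0.14 to 0.09), and it was called lower in TGFB1 with each library scaled to a common sum. The iron-sulfur subunit Sdhb and the membrane anchors Sdhc and Sdhd had log2 changes of 0.08, 0.08 and 0.10, with the upper end of the widest interval at 0.27.

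Complex III had the largest share of members called, 3 of 8, all of them up (37.5%). Among all genes tested 17.3% were called up and 14.6% down. Uqcrq, a small subunit on the ubiquinone side, measured 113, 99.2 and 115 FPKM in TGFB1 libraries and 88, 75.2 and 84.3 FPKM in Vehicle libraries. Its log2 change of 0.40 ± 0.08 (SE, adjusted p = 0.00434) was the largest rise among the members, and the groups did not overlap. Uqcr10, another small subunit, measured 306, 241 and 283 FPKM in TGFB1 libraries and 232, 213 and 222 FPKM in Vehicle libraries. TGFB1 replicate 2 lay closest to Vehicle, and the log2 change was 0.31 ± 0.10 (SE, adjusted p = 0.0377). Uqcrfs1, the Rieske iron-sulfur protein that carries electrons toward cytochrome c, measured 75, 72.1 and 74.5 FPKM in TGFB1 libraries and 67.5, 64.5 and 59 FPKM in Vehicle libraries. All TGFB1 libraries were higher, by a log2 of 0.21 ± 0.07 (SE, adjusted p = 0.0356). The call for Uqcr10 was lost in 8 of the 12 fits that left out 1 library (adjusted p 0.0502 to 0.141), among them each Vehicle library, TGFB1 replicates 1 and 3, Vehicle_Tgfbr2KO replicates 2 and 3 and TGFB1_KO replicate 2. That for Uqcrfs1 was lost without Vehicle replicate 2 or 3 or any TGFB1 library (0.0582 to 0.117), and with the block within genotype (0.0575), and both were lost under 2 of the 3 scalings. The core proteins Uqcrc1 and Uqcrc2 were not called, with log2 changes of 0.13 and 0.10, and Uqcrb, Uqcrh and Uqcr11 ranged from 0.03 to 0.19. Of these 5, Uqcrh passed with the replicate block (adjusted p = 0.0257, against 0.0581 without it).

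In complex IV, Cox6a1 and Cox7a2l rose. Cox6a1 measured 939, 924 and 969 FPKM in TGFB1 libraries and 837, 766 and 739.8 FPKM in Vehicle libraries. The groups did not overlap, and the log2 change was 0.28 ± 0.08 (SE, adjusted p = 0.0263). Its promoter stretch (chr5:115349041-115349145, GRCm38.p6, minus strand) is shown because it holds 3 matches to the NRF1 letters, 2 of them overlapping.
Cox6a1: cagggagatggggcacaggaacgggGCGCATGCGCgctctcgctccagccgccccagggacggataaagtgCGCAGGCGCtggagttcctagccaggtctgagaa
Cox7a2l, whose protein joins complexes III and IV into supercomplexes, measured 188, 163 and 177 FPKM in TGFB1 libraries and 152, 132 and 153 FPKM in Vehicle libraries. It was higher in every TGFB1 library, with a log2 change of 0.27 ± 0.07 (SE, adjusted p = 0.0172). The Cox6a1 call was lost without Vehicle replicate 2 or 3 or TGFB1 replicate 1 or 3 (adjusted p 0.0665 to 0.0848), and the Cox7a2l call without Vehicle replicate 2 or TGFB1 replicate 1 or 3 (0.0529 to 0.0725). Both were lost with each library scaled to a common sum, and that of Cox7a2l also with upper-quartile scaling. The core-associated subunits Cox4i1, Cox5a and Cox5b were not called, with log2 changes of 0.11, 0.23 and 0.11.

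In complex V, Atp5md and Atp5l rose, both of which encode small membrane subunits known to help ATP synthases pair into dimers. Atp5md measured 673, 613 and 612 FPKM in TGFB1 libraries and 534, 480.2 and 468 FPKM in Vehicle libraries. The groups did not overlap, and the log2 change was 0.36 ± 0.11 (SE, adjusted p = 0.0331). Atp5l measured 309.7, 288 and 304 FPKM in TGFB1 libraries and 253, 252 and 265 FPKM in Vehicle libraries. All TGFB1 libraries were higher, by a log2 of 0.23 ± 0.07 (SE, adjusted p = 0.0268), and in the mouse annotation GENCODE vM21 133 bases of its exons overlap an antisense gene that was not analysed here. Whether the libraries keep strand is not stated, so reads in such a shared stretch cannot be told apart. Both promoters hold 1 match to the NRF1 letters, at chr19:47090811-47090869 and chr9:44920950-44920992 (GRCm38.p6, minus strand).
Atp5md: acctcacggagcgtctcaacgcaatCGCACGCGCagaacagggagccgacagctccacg
Atp5l: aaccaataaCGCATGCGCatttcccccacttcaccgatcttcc
The Atp5md call was lost without Vehicle replicate 2 or 3 or any TGFB1 library (adjusted p 0.0588 to 0.112), and the Atp5l call without Vehicle replicate 1 or 2 or TGFB1 replicate 1 or 3 (0.0747 to 0.0918). Both were lost with each library scaled to a common sum, and that of Atp5l also with upper-quartile scaling. The genes of the catalytic head did not pass the test. Atp5a1 measured 212 ± 5.67 FPKM in TGFB1 and 204 ± 7.18 FPKM in Vehicle (SD, n = 3 each), and the log2 changes of Atp5a1, Atp5b and Atp5c1 were 0.05, 0.15 and 0.01.

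Promoter windows from 250 bases before to 50 after the gene start were at hand for 68 of the 83 members (RefSeq, GRCm38.p6). In 54 of them the first 20 letters after the start lay in a GENCODE vM21 transcript of the gene. For the rest the gene start was not matched in this way. The NRF1 letters GCGCNTGCG occurred, on either strand, in 22 of these 68 windows (32.4%), against 14.3% of 9853 windows of genes tested and 6.59% of all 27025. Of the 11 called members 8 had a window, and 6 of them held the letters (75%): the 5 shown above and Uqcr10, whose match starts just after the gene start. The letters AAGATGGC, bound by YY1, occurred in 9 of 68 member windows (13.2%) and in none of the 8, against 4.84% of windows of genes tested. The letters CCGGAAG, read by ETS factors such as GABPA, occurred in 16 of 68 (23.5%) and in 3 of the 8 (37.5%), against 18.7%. A match describes the letters and is not a measured binding site.

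Several subunits have paralogs that are known to differ by tissue. In these cultures the widely expressed form of each cytochrome oxidase pair dominated. Cox4i1 made up at least 99.4% of the summed FPKM of Cox4i1 and Cox4i2 in every library, and Cox6a1 at least 99.3% of Cox6a1 and Cox6a2. The heart and muscle form Cox7a1 made up 0.424 to 1.76% of its family, while Cox7a2l and Cox7a2 made up 60.2 ± 0.448% and 38.7 ± 0.970% in TGFB1 and 58.7 ± 2.83% and 40.4 ± 2.55% in Vehicle (SD, n = 3 each). Atp5g1, Atp5g2 and Atp5g3, which encode the same mature ring subunit of ATP synthase, made up 19.8 ± 0.779%, 40.2 ± 0.330% and 40.0 ± 0.482% in TGFB1 and 17.6 ± 1.28%, 42.9 ± 2.20% and 39.5 ± 1.09% in Vehicle. Of these 3 ring genes none was called, with log2 changes of 0.22, -0.04 and 0.07. Cox6c, Cox7b and Cox8a, which have no such partner at a measurable level here, were not called either, with log2 changes of 0.08, 0.15 and 0.07.

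**Figure D4:**
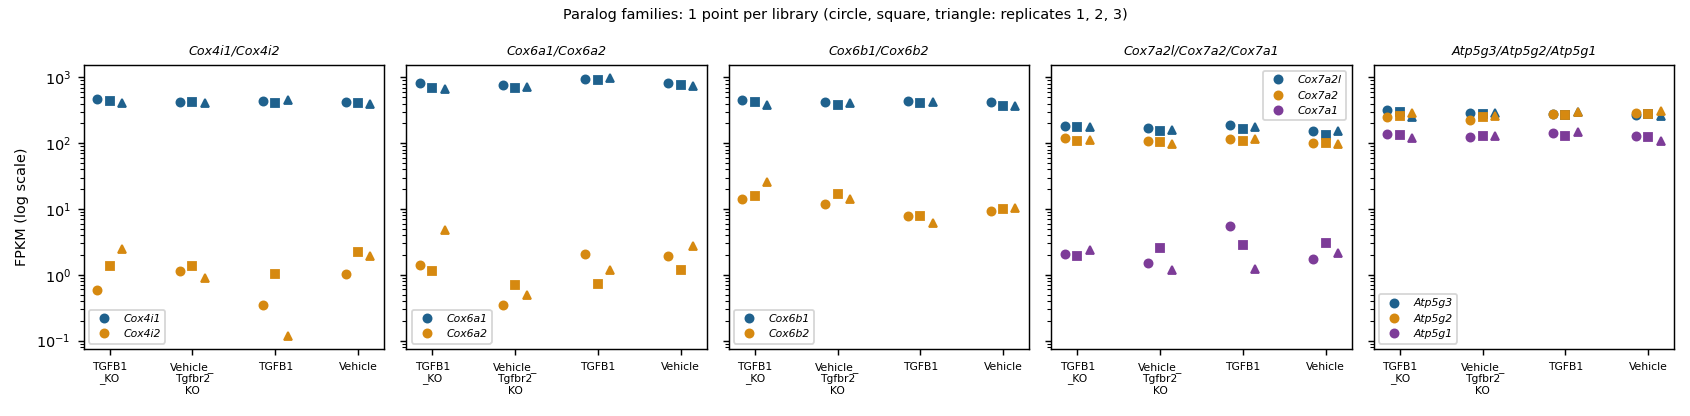
FPKM on a log axis (y) of paralogous subunit genes in each library of the 4 groups (x). Cox4i1 and Cox6a1 lie far above Cox4i2 and Cox6a2 in every library, the 3 Atp5g genes lie close together, and Cox6b2 is lowest in TGFB1 (6.22 to 7.88 FPKM) and highest in TGFB1_KO replicate 3 (25.4 FPKM).

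Among the minor forms, Cox4i2, a form known for its induction under low oxygen, measured 0.350, 1.02 and 0.117 FPKM in TGFB1 libraries and 1.04, 2.21 and 1.96 FPKM in Vehicle libraries. The highest TGFB1 library lay just below the lowest Vehicle library. Cox4i2 fell by a log2 of 0.89 (SE 0.30, adjusted p = 0.0473) at levels near the filter, on a scale that understates changes of low genes. That call was lost in 8 of the 12 fits without 1 library (adjusted p 0.0599 to 0.158), among them Vehicle replicates 2 and 3, TGFB1 replicates 1 and 3, every Vehicle_Tgfbr2KO library and TGFB1_KO replicate 2. Cox6b2, best known from testis, measured 14.3, 15.8 and 25.4 FPKM in TGFB1_KO, 12.1, 17 and 14.2 in Vehicle_Tgfbr2KO, 7.88, 7.73 and 6.22 in TGFB1 and 9.35, 9.97 and 10.2 in Vehicle. Its ranges did not overlap between TGFB1 and Vehicle, nor between Vehicle_Tgfbr2KO and Vehicle, and none of the comparisons called it (log2 -0.40 ± 0.19 with adjusted p = 0.139 for TGFB1 minus Vehicle, and 0.50 ± 0.19 with adjusted p = 0.171 for Vehicle_Tgfbr2KO minus Vehicle). Of the sum of Cox6b1 and Cox6b2 it made up 4.28 ± 1.66% in TGFB1_KO, 3.46 ± 0.751% in Vehicle_Tgfbr2KO, 1.67 ± 0.219% in TGFB1 and 2.50 ± 0.284% in Vehicle (SD, n = 3 each). Cox6a2, the heart and muscle form, measured 1.43, 1.13 and 4.73 FPKM in TGFB1_KO and 0.352, 0.711 and 0.498 FPKM in Vehicle_Tgfbr2KO, and was not called (log2 1.03 ± 0.36, adjusted p = 0.739).

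In Tgfbr2KO cultures, TGFB1 changed no member past the threshold. The comparison of TGFB1_KO with Vehicle_Tgfbr2KO called 0% of all genes tested in either direction with limma, and the smallest adjusted p of a member was 0.739. At an unadjusted p under 0.05 there were 8 members, all higher in TGFB1_KO (10% of members, against 5.92% of all genes): Cox5b, Cox6a2, Cox7c, Ndufc1, Ndufv2, Ndufv3, Uqcrc2 and Uqcrq. Most differences were positive. Of 80 differences 70 were positive with a median log2 of 0.07, against 50% and 0 for all genes. With each library scaled to a common sum 54 were positive with a median of 0.03, against 40.4% and -0.04 for all genes. Relative to the median gene, the members' median was 0.071 higher as deposited and 0.066 higher after that scaling. The members above the median gene numbered 70 and 69 of the 80. In 17 members all TGFB1_KO libraries lay above all Vehicle_Tgfbr2KO libraries and in 0 below, against 6.6% and 5.23% of all genes tested. With the replicate number as a block 23 of 80 members had an unadjusted limma p under 0.05, all of them higher in TGFB1_KO. Among all 12641 genes tested the block raised that count from 748 to 1897. The smallest adjusted p of a member with the block was 0.251.

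Ndufv3, an accessory subunit of the electron-entry arm, had the largest difference among the well-expressed members. It measured 86.7, 90.4 and 122 FPKM in TGFB1_KO libraries and 72.4, 74.3 and 78.2 FPKM in Vehicle_Tgfbr2KO libraries, with TGFB1_KO replicate 3 well above replicates 1 and 2 (log2 0.39 ± 0.16, adjusted p = 0.739). Ndufc1, a small membrane-arm subunit, measured 179, 153 and 159 FPKM in TGFB1_KO and 132, 139 and 147 FPKM in Vehicle_Tgfbr2KO (log2 0.23 ± 0.07, adjusted p = 0.739). For Ndufs5, which rose in cultures without the Tgfbr2KO label, the values were 148, 143 and 138 FPKM in TGFB1_KO and 141, 134 and 141 FPKM in Vehicle_Tgfbr2KO. The groups overlap, and the 95% interval of the log2 change was -0.06 to 0.16. The summed FPKM of all members was 14156, 13182 and 12722 in TGFB1_KO and 12991, 12354 and 12748 in Vehicle_Tgfbr2KO, a ratio of means of 1.052. TGFB1_KO replicate 1 was the highest library of both groups, and it was also the highest of all 12 libraries for 21 of the 77 members with a mean of at least 5 FPKM. Its FPKM sum over all genes, 535137, was also the largest of both groups. The members made up 2.645% of that sum, the highest share of the 12 libraries. How many of all genes were highest in this library was not counted.

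**Figure D5:**
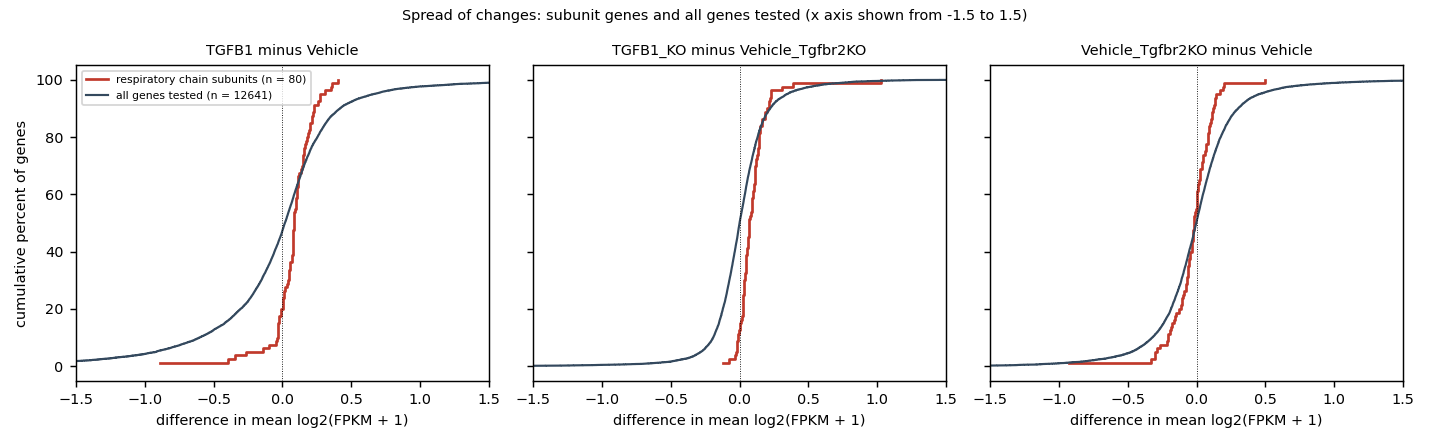
Cumulative percent of genes (y axis) by the difference in mean log2(FPKM + 1) (x axis, shown from -1.5 to 1.5) for the 80 tested subunit genes and all 12641 genes tested, in 3 comparisons. The subunit curve is steeper than that of all genes in each panel, and the sets were not matched for level. In TGFB1_KO minus Vehicle_Tgfbr2KO 70 of 80 members lie above 0, against 50% of all genes. With each library scaled to a common sum these become 54 members and 40.4% of all genes.

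The difference between the 2 TGFB1 responses was tested as an interaction, the log2 change in Tgfbr2KO cultures minus that in cultures without the label. It called 1 member up and 1 down, or 1.25% each, against 8.38% up and 9.26% down among all genes tested. Ndufa5 had an interaction of 0.39 ± 0.09 (SE, adjusted p = 0.0189), from log2 changes of 0.12 in Tgfbr2KO cultures and -0.27 in the others, and its adjusted p became 0.0507 without TGFB1 replicate 1. Ndufa5 measured 74.8, 85.2 and 83.6 FPKM in TGFB1_KO libraries and 69.6, 75.1 and 78.5 FPKM in Vehicle_Tgfbr2KO libraries, which overlap.

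For the other 9 genes called with TGFB1 a difference between the responses was not shown. Their interactions ran from -0.32 (Atp5md) to 1.03 (Cox4i2), with adjusted p from 0.0618 (Ndufs5) upward. The replicate block added Atp5md, Cox6a1 and Ndufs5 to the interactions below 0 and Ndufb5 to those above, for 2 up and 4 down. Among all genes tested it called 13.6% up and 15.4% down. Without TGFB1_KO replicate 1 there were 3 up and 4 down, without TGFB1 replicate 3 there were 2 up, and without Vehicle replicate 1 there were 2 down. Over all members 37 of 80 interactions were positive, with a median of -0.01, against 47.9% and -0.02 for all genes. With each library scaled to a common sum 62 were positive with a median of 0.08, against 58.8% and 0.07 for all genes. The number of members above the median gene was 42 as deposited and 46 after that scaling.

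Between the vehicle groups, no member was called by the fit without a replicate block. Among all genes tested, 0.522% were higher and 0.72% lower in Vehicle_Tgfbr2KO than in Vehicle (limma). At an unadjusted p under 0.05 there were 13 members, 3 of them higher in Vehicle_Tgfbr2KO (16.2% of members, against 21.9% of all genes). Ndufs6, a zinc-binding accessory subunit of complex I, came closest. It measured 78.7, 86.8 and 88.2 FPKM in Vehicle_Tgfbr2KO libraries and 109, 104 and 101 FPKM in Vehicle libraries. All 3 Vehicle_Tgfbr2KO libraries were lower, with a log2 difference of -0.30 ± 0.07 (SE, adjusted p = 0.0574). Without TGFB1_KO replicate 3, a library outside this comparison that enters the shared estimate of spread, Ndufs6 (adjusted p = 0.0287) and Atp5g2 were called lower and Cox6b2 higher. Ndufs6 has 30 bases of exon in common with Mrpl36 on the opposite strand.

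In complex I most differences between the vehicle groups were negative. Of its 36 members 26 were below 0 as deposited and with each library scaled to a common sum, with medians of -0.06 and -0.05. Over all genes tested 49.5% and 51.2% were above 0, with medians of -0.003 and 0.006. The medians of the other complexes ran, as deposited, from -0.01 (complex III) to 0.04 (complex II). Summed FPKM of complex I was 3414, 3277 and 3379 in Vehicle_Tgfbr2KO and 3528, 3395 and 3519 in Vehicle, a ratio of means of 0.9644, and the groups overlap. Atp5g2 measured 224, 249.6 and 256 FPKM in Vehicle_Tgfbr2KO and 288, 281 and 307 FPKM in Vehicle, without overlap. It did not pass the test without a replicate block (log2 -0.26 ± 0.07, adjusted p = 0.0934). The limma fit with that block called 6 members lower and 0 higher between the vehicle groups, against 8% and 7.01% of all genes. Atp5g2 (adjusted p = 0.0135) and Ndufs6 (0.0219) were among them, although same-numbered libraries of these groups did not all deviate together. In 14 members all Vehicle_Tgfbr2KO libraries lay below all Vehicle libraries and in 6 above, of the 80, against 15.6% and 14.8% of all genes tested.

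Genes that build or feed the chain were described beside the subunits, in lists chosen by function. Of 48 assembly factors, 5 rose and 1 fell with TGFB1, or 10.4% and 2.08%, against 17.3% and 14.6% of all genes tested. Tmem70, needed to assemble ATP synthase, measured 76.1, 75 and 84.6 FPKM in TGFB1 libraries and 52.8, 52.9 and 46.7 FPKM in Vehicle libraries (log2 0.62 ± 0.09, adjusted p = 0.000786). Its change was larger than that of any subunit called up. Cox17, the copper chaperone of complex IV, measured 210.2, 191 and 211 FPKM in TGFB1 and 164, 139 and 131 FPKM in Vehicle (log2 0.50 ± 0.11, adjusted p = 0.0071). Bcs1l, which inserts the Rieske protein Uqcrfs1 into complex III, fell to 4.84, 5.15 and 4.66 FPKM in TGFB1, against 5.61, 6.01 and 6.99 FPKM in Vehicle (log2 -0.29 ± 0.08, adjusted p = 0.0223). It was also the only assembly factor called between the vehicle groups, at 4.16, 4.25 and 4.88 FPKM in Vehicle_Tgfbr2KO (log2 -0.41 ± 0.08, adjusted p = 0.048).

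Of 17 citric acid cycle genes 3 rose and 1 fell with TGFB1, or 17.6% and 5.88%, against 17.3% and 14.6% of all genes tested. Idh3a, the catalytic subunit of the NAD-dependent isocitrate dehydrogenase, rose by a log2 of 0.44 ± 0.15 (adjusted p = 0.0497), and Suclg1 by 0.25 ± 0.06 (adjusted p = 0.0116). Idh2, the NADP-dependent mitochondrial isocitrate dehydrogenase, fell to 37.7, 47.4 and 40.8 FPKM in TGFB1, against 62.2, 71.2 and 71.7 FPKM in Vehicle (log2 -0.69 ± 0.13, adjusted p = 0.00285). Of 9 tested coenzyme Q genes Coq3 rose (log2 0.39, adjusted p = 0.0155) and Coq6 fell (log2 -0.19, adjusted p = 0.0479). Of 18 import genes Tomm20 rose (log2 0.27, adjusted p = 0.0322), and of 10 tested subunits and carriers outside the symbol pattern Etfdh rose (log2 0.29, adjusted p = 0.0126).

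Among regulators of mitochondrial biogenesis, 3 of 13 tested rose with TGFB1 and 0 fell, or 23.1% up, against 17.3% of all genes tested. Myc measured 35, 38.7 and 38.9 FPKM in TGFB1 and 27.3, 28.5 and 21.7 FPKM in Vehicle (log2 0.53 ± 0.14, adjusted p = 0.0148), and Gabpb1, the partner of GABPA, rose by a log2 of 0.30 ± 0.08 (adjusted p = 0.021). Nrf1 itself measured 8.65, 9.12 and 8.44 FPKM in TGFB1 and 9.98, 10.7 and 9.80 FPKM in Vehicle. Its ranges did not overlap, with a log2 difference of -0.20 ± 0.09 that did not pass the test (adjusted p = 0.116). The mitochondrial transcription factor Tfam did not pass either (log2 -0.13 ± 0.07, adjusted p = 0.183). The coactivator Ppargc1a was read at 0.0663 to 0.173 FPKM over the 12 libraries and was not tested. In TGFB1_KO minus Vehicle_Tgfbr2KO none of the genes in these lists was called.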

How the data were processed

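RNA of 12 mouse cultures was sequenced from poly-A selected RNA, per the labels' protocols. The authors deposited 1 table of FPKM per gene symbol, and the submitters' processing notes name kallisto 0.46.1, DESeq2 1.40.1 and mm9 without saying what each was used for. Read numbers, strand and the handling of multi-mapped reads are not given in the sources used here. Groups came from the sample titles.

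From these values, log2(FPKM + 1) was compared with limma 3.58.1 in R 4.3.3, over the 12641 of 25203 genes with at least 1 FPKM in 3 or more of the 12 libraries. One model held the 4 group means (8 residual degrees of freedom, empirical Bayes with a variance trend), and p-values were adjusted by Benjamini-Hochberg over all genes tested, with a threshold of 0.05. The fit was tested on simulated data with independent noise in each library and no effect shared by same-numbered libraries. How well it recovers changes as small as those of the members is not given here. The members and lists were chosen with earlier results of these data known. Named by rule were, in each complex and comparison, up to 3 called members with the largest rise and up to 3 with the largest fall, the paralog families, the core subunits, up to 2 called genes in each direction of each other list, and Ppargc1a, Nrf1 and Tfam. Other named genes were chosen after their values were seen. One member enters the counts and sums and is otherwise not reported here. The labels carry the numbers 31, 121 and 123 in each of the 4 groups, for replicates 1, 2 and 3, without saying what the numbers mark. Within each genotype same-numbered libraries deviated together (correlations 0.391, 0.445 and 0.408 between TGFB1 and Vehicle, and 0.588, 0.227 and 0.529 between TGFB1_KO and Vehicle_Tgfbr2KO). That they deviated together comes from the data. For comparisons within a genotype and the interaction, blocked values are therefore given where they change a call. Alternatives were other scalings (among them every library scaled to the same FPKM sum), filters, pseudocounts and fits, the block, and each library left out. Promoter sequences and coordinates are RefSeq's on GRCm38.p6, while the processing notes name mm9. Python 3.11.15 drew the figures.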

Additional observations from a re-analysis of the deposited data

Results flagged for a closer look

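In 6 genes named here the response to TGFB1 differed between Tgfbr2KO cultures and cultures without that label, by the limma interaction term (adjusted over all genes tested). The subunit gene Ndufa5 had an interaction of 0.39 on the log2 scale. The other 5 came from the lists of related genes. Among all genes tested the interaction term called 8.38% up and 9.26% down. Of 48 assembly factors it called 2 up and 1 down (4.17% and 2.08%). Of 17 citric acid cycle genes it called 1 up (5.88%), and of 13 tested regulators 1 down (7.69%).

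Tmem70 measured 55.9, 53.5 and 43.9 FPKM in TGFB1_KO and 48.3, 47.7 and 52.1 FPKM in Vehicle_Tgfbr2KO, an interaction of -0.58 (adjusted p = 0.0142). Bcs1l measured 5.41, 5.57 and 5.40 FPKM in TGFB1_KO and 4.16, 4.25 and 4.88 FPKM in Vehicle_Tgfbr2KO, an interaction of 0.54 (adjusted p = 0.0107). Coa4, an assembly factor of complex IV, had an interaction of 0.42 (adjusted p = 0.0452), from log2 changes of 0.26 in Tgfbr2KO cultures and -0.16 in the others. All 3 are assembly factors, and their interactions differ in sign. Idh2 measured 42.9, 50.3 and 58.7 FPKM in TGFB1_KO and 42.2, 46.5 and 54.1 FPKM in Vehicle_Tgfbr2KO, an interaction of 0.78 (adjusted p = 0.0175). Myc measured 26.5, 26.3 and 18.4 FPKM in TGFB1_KO and 28.3, 26.2 and 26.4 FPKM in Vehicle_Tgfbr2KO, an interaction of -0.72 (adjusted p = 0.0292).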

How the results depend on the processing

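With each library scaled to a common sum, TGFB1 minus Vehicle called 1169 genes up and 2794 down, with 3 members up and 5 down and a members' median of -0.05829. The ratios of summed FPKM became 0.9499, 0.9476, 1.044, 1.016 and 0.9855 for complexes I to V and 0.9881 for all members. The interaction then called 2 members up, with a members' median of 0.08362 (0.0683 over all genes), and Vehicle_Tgfbr2KO minus Vehicle called 49 genes down. Upper-quartile scaling gave 5 members up with a median of 0.03501 in TGFB1 minus Vehicle. Without a filter, or with a filter of 5 FPKM, 1 member was called down there. Without a filter Vehicle_Tgfbr2KO minus Vehicle called 26 genes up and 45 down, without a variance trend 46 down, and with only the groups compared 0 up and 0 down. A pseudocount of 0.1 gave 1 gene called up in TGFB1_KO minus Vehicle_Tgfbr2KO. No direction of a called result reversed. Depth is unknown, so counting error could not be set apart from other spread.

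Same-numbered libraries deviated together within each genotype, but not in every pair of Vehicle_Tgfbr2KO and Vehicle. The correlations there were 0.336, -0.0867 and 0.412 for replicates 1, 2 and 3. The replicate block called 15 members up in TGFB1 minus Vehicle. In the interaction it called 1716 genes up and 1942 down, with 2 members up and 4 down, and in Vehicle_Tgfbr2KO minus Vehicle 886 up and 1011 down, with 6 members down (Atp5g2, Ndufa13, Ndufa2, Ndufa5, Ndufc2 and Ndufs6, adjusted p 0.0135 to 0.0403). A replicate block within genotype, chosen after seeing the data, called 14 members up in TGFB1 minus Vehicle, and 1733 genes up and 1825 down in the interaction with 3 members down.

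Leaving out 1 library at a time, TGFB1 minus Vehicle called 3 to 12 members up and 0 to 4 down, with a median of 0.05589 to 0.1313, and 1637 to 2498 genes up and 1331 to 2082 down. The interaction called 0 to 3 members up and 1 to 4 down, with a median of -0.04223 to 0.01382, and 713 to 1146 genes up and 773 to 1311 down. TGFB1_KO minus Vehicle_Tgfbr2KO called 0 genes up and 0 to 1 down. Vehicle_Tgfbr2KO minus Vehicle called 0 to 329 genes up and 0 to 419 down, with 0 to 1 members up and 0 to 2 down.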

Other observations

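Of the 83 subunit genes 81 were found by symbol in GENCODE vM21, and exons of 27 overlap exons of another gene, on the opposite strand in 24 cases. Ndufb4 has a near copy, Ndufb4c, which measured 42.7 to 76.3 FPKM over the 12 libraries. How reads were divided between Ndufb4 and Ndufb4c is not given in the sources used here, so the level of Ndufb4 is uncertain. Of the 77 members with a mean of at least 5 FPKM, 27 were highest in TGFB1 replicate 3, 21 in TGFB1_KO replicate 1 and 12 in TGFB1 replicate 1. The FPKM sums of these libraries over all genes were 569510, 535137 and 564183. In TGFB1 replicate 2, with a sum of 551457, 1 member was highest. The same count over all genes was not made.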
